A study of Saccharomyces cerevisiae with 32 samples.

Results

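Glycogen metabolism in Saccharomyces cerevisiae is covered here by 10 genes, taken by name from the 6717 genes of the expression table, and all 10 were among the 6203 genes tested. They encode the enzymes that start, extend and branch glycogen (GLG1, GLG2, GSY1, GSY2 and GLC3), those that take it apart (GPH1 and GDB1), and subunits that bring a phosphatase to glycogen (GAC1, PIG1 and PIG2). The study followed a wild type strain (WT, DBY12000) and a tps1 strain (DBY12383) growing in minimal medium with 2% galactose, to which glucose or fructose was added to 2%. Each of the 4 courses, WT glucose, WT fructose, tps1 glucose and tps1 fructose, was sampled before the sugar (0 min, in galactose) and 3, 5, 10, 15, 30, 60 and 120 min after it, which gives 32 poly-A RNA libraries. Every strain, sugar and time is a single library; the labels name no repeat of a course, and they give the tps1 genotype by name alone. They do not say whether the 2 galactose libraries of a strain came from separate cultures, and the tps1 galactose library of the fructose course carries a mark, trd, that they do not explain. The p-values below therefore measure spread between serial samples and between the sugars, not between independent cultures of 1 condition.

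Glycogen is a branched store of glucose. Glycogenin attaches the starting glucose units, glycogen synthase extends them from UDP-glucose and the branching enzyme adds side chains, while phosphorylase and the debranching enzyme release glucose again. In yeast the genes of both directions are known to be expressed together as glucose runs low and to be held down while glucose is plentiful and protein kinase A is active. TPS1 encodes trehalose-6-phosphate synthase, which makes the precursor of trehalose, and tps1 mutants cannot grow on glucose or fructose but grow on galactose.

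The strain labels were checked on TPS1 itself (YBR126C), which ranged from 43.2 to 326 FPKM (fragments per kilobase of transcript, scaled to depth) in the 16 WT libraries and from 0 to 1.18 FPKM in the 16 tps1 libraries. GAL1, the galactokinase gene, stood at 10390 and 9338 FPKM in the WT galactose libraries and at 1548 and 3869 FPKM after 120 min of glucose and fructose. In the tps1 courses GAL1 was between 14290 and 34090 FPKM in all 14 libraries after sugar, against 10510 and 9966 FPKM in galactose. Depth, estimated from the spacing of low values, lay between 3.94 M and 9.72 M fragments per library. The FPKM columns summed to between 1.32 M and 1.60 M in WT but to between 1.51 M and 2.58 M in tps1 after sugar, so the scaling of the tps1 libraries is examined again below.

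Upstream sequence is shown for GSY1 and GSY2 (synthase), GLC3 (branching) and GPH1 (phosphorylase), the enzyme genes the results turn on, because each carries at least 2 copies of the stress response element (CCCCT on either strand), the site known to bind Msn2 and Msn4. The stretches run from 10 bases before the outermost copy to 10 bases after the innermost one, 5′ to 3′ along the gene's own strand, with the element in capitals. They were read from the RefSeq R64 genome (sacCer3), at chrVI:176709-176868 (reverse strand), chrXII:660329-660534 (forward strand), chrV:132736-132921 (forward strand) and chrXVI:860751-860994 (forward strand).
GSY1: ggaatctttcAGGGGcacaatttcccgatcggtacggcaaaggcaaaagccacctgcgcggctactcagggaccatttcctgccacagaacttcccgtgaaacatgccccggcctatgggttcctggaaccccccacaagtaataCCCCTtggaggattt
GSY2: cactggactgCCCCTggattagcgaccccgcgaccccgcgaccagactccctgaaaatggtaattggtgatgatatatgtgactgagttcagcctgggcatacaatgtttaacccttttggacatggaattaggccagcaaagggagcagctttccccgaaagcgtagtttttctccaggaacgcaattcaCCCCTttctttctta
GLC3: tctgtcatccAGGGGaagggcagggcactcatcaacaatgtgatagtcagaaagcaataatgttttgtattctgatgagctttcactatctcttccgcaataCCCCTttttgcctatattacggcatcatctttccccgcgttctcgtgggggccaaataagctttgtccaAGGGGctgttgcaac
GPH1: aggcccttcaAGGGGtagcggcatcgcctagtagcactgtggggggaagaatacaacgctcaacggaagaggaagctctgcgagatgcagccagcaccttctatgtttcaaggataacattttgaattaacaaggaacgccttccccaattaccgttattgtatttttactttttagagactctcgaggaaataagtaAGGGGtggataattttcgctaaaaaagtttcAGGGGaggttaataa

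In the 600 bases before the start codon, 7 of the 10 genes held CCCCT on either strand, against 39.9% of 5710 genes with such a window, and 6 held it at least 2 times, against 10.9%. The 300 base window held it in 4 of 10, against 22.6%. A Mig1-type match (CCCCGC or CCCCAC, either strand) was present in 6 of 10 in the 600 bases, against 16.5%, and in 2 of 10 in the 300 bases, against 7.36%. AGGGAT, the core of the post-diauxic element, was found in GSY2, GLG1 and GAC1, 3 of 10 against 18.3% in the 600 bases, and in GLG1 alone in the 300 bases, against 9.14%. GLG2 and PIG2, the members not called in WT, also held 2 copies of CCCCT each in the 600 bases, while GLG1, GAC1 and PIG1, which were called, held neither CCCCT nor the Mig1-type match. No motif contains another, though neighbouring matches can share bases. The 600 base window was chosen after values had been seen, and a match is a description of letters only.

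In galactose all 10 genes were expressed in both strains. GSY2, the main glycogen synthase gene, was highest, at 186.2 and 170.3 FPKM in the WT libraries of the glucose and fructose courses and at 142.1 and 122 FPKM in tps1. GPH1, GLC3 and GSY1 followed with WT means of 74.2, 69.9 and 60.7 FPKM; the libraries of GPH1 and GLC3 overlapped in WT, as did those of GLC3 and GSY1. GLG2, GLG1, GAC1 and GDB1 had WT means of 49.5, 33.0, 28.8 and 21.6 FPKM. PIG1 and PIG2 were lowest, with means of 13.9 and 8.89 FPKM. In 9 of the 10 genes both tps1 galactose libraries were below both WT ones, as in 23.4% of all genes tested; PIG1 was the exception.

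None of the 10 genes was called different between the strains in galactose (limma, 2 libraries against 2), where 0.129% of genes were called in either direction; 4 of the 10 and 729 of 6203 genes had an unadjusted p under 0.05. A call here and below needs a Benjamini-Hochberg adjusted p under 0.05 over all 6203 genes and a change of at least 2-fold. The largest difference was that of GPH1, which encodes glycogen phosphorylase, at 79.6 and 68.8 FPKM in WT against 40.1 and 34.1 FPKM in tps1 (log2 difference -0.98 ± 0.13, adjusted p = 0.155). GSY1 followed, at 68.6 and 52.8 FPKM in WT against 38.4 and 40.0 FPKM in tps1 (-0.61 ± 0.15, adjusted p = 0.306). The median over the 10 genes was -0.35, and that over all genes 0.00.

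**Figure D1:**
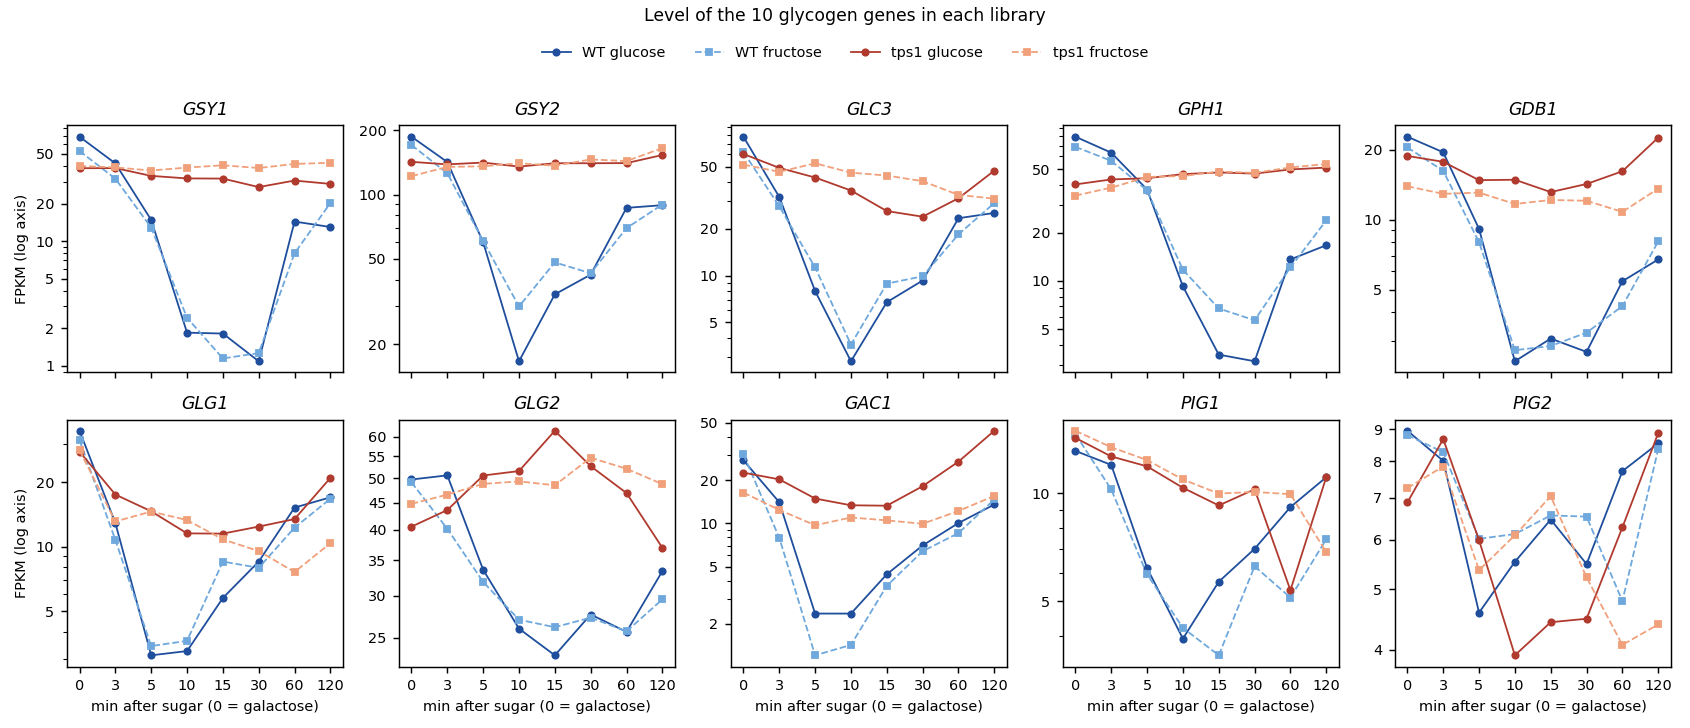
Level of each of the 10 genes in each of the 32 libraries: FPKM on a log axis against minutes after sugar, drawn at even steps, with 0 min the galactose library and lines joining the libraries of a course. In WT (blue) all but PIG2 and GLG2 drop at least 3-fold and turn upward again by 120 min, as for GSY1 from 68.6 to 1.09 and then 12.97 FPKM in glucose, while in tps1 (red) GSY1 stays between 27.1 and 42.4 FPKM.

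With glucose or fructose added, 8 of the 10 glycogen genes of WT were called lower at 10 min, where 6.34% of all genes were. These 8 covered both directions of the pathway. They were synthase (GSY1, GSY2), branching enzyme (GLC3), phosphorylase (GPH1), debranching enzyme (GDB1), glycogenin (GLG1) and the phosphatase subunits GAC1 and PIG1. Levels were lowest between 5 and 30 min in these 8 genes and had partly come back at 120 min. GLG2, a second glycogenin gene, and PIG2, a phosphatase subunit gene, were called at no time, though both also declined. Their lowest glucose and fructose libraries were at 46.5% and 52.2% of galactose for GLG2 and at 51.2% and 54.3% for PIG2. In 9 of the 10 genes all 14 WT libraries after sugar were below both galactose libraries, as in 8.27% of all genes tested; the exception was GLG2. The FPKM of the 10 genes added up to 568.7 in WT galactose and 74.07 at 10 min of glucose, and to 508.3 and 92.93 in the fructose course. FPKM are relative to a library, so the amount of RNA per cell is not measured by them.

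GSY1 (YFR015C, chrVI:174265-176391, reverse strand), which encodes a glycogen synthase isoform, stood at 68.6 FPKM in the WT galactose library of the glucose course and at 41.9, 14.8, 1.85, 1.82, 1.09, 14.3 and 12.97 FPKM at 3, 5, 10, 15, 30, 60 and 120 min of glucose. In the fructose course it stood at 52.8 FPKM and then at 31.6, 12.8, 2.43, 1.15, 1.27, 7.99 and 20.2 FPKM at the same times. Both courses thus dropped to between 1 and 3 FPKM at 10, 15 and 30 min, the deepest fall of the 10 genes, and were back above 7 FPKM at 60 min. Against galactose, with the 2 sugars combined at each time (2 libraries against 2), the log2 difference was -4.81 ± 0.26, adjusted p = 8.18e-11 at 30 min and -1.83 ± 0.26, adjusted p = 0.000202 at 120 min. The lowest level, 1.09 FPKM, corresponds to about 16.9 fragments and 1.59% of the level before glucose.

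GSY2 (YLR258W, chrXII:660716-662833, forward strand), the major synthase gene, went from 186 FPKM to 142, 59.8, 16.6, 34.2, 42.2, 86.6 and 89.1 FPKM over the 7 times of glucose. With fructose it went from 170.3 FPKM to 126, 60.6, 29.99, 48.2, 42.9, 69.7 and 89.8 FPKM. The low was at 10 min in both sugars, deeper in the glucose library, and the 60 min libraries were back at 46.5% and 40.9% of galactose. At 10 min the log2 difference from galactose was -2.94 ± 0.18, adjusted p = 4.77e-10; at 120 min it was -0.98 ± 0.18, adjusted p = 0.00237, just short of a 2-fold change.

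GLC3 (YEL011W, chrV:133120-135234, forward strand), the branching enzyme gene, moved from 77.7 FPKM to 31.9, 7.95, 2.82, 6.74, 9.29, 23.3 and 25.2 FPKM in glucose. In fructose the level was 62.02 FPKM and then 27.8, 11.3, 3.61, 8.87, 9.88, 18.4 and 29.2 FPKM. At 3 min its libraries were already at 41.1% and 44.8% of the galactose level, and the 10 min libraries were the lowest of each course. The log2 difference was -1.19 ± 0.26, adjusted p = 0.0109 at 3 min and -4.07 ± 0.26, adjusted p = 5.09e-10 at 10 min. The call at 3 min was lost without the WT fructose library of that time (-1.10) or without the WT galactose library of the glucose course (-1.03).

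GLG1 (YKR058W, chrXI:552770-554620, forward strand) encodes glycogenin, the protein primer of the glycogen chain. Its WT level was 34.6 FPKM before glucose and 12.9, 3.12, 3.27, 5.77, 8.52, 15.2 and 16.97 FPKM after it. The fructose course read 31.3 FPKM and then 10.8, 3.45, 3.64, 8.52, 7.97, 12.3 and 16.7 FPKM. The lowest libraries were those of 5 min, and at 15 min both courses were above their 5 min level. The log2 difference was -1.41 ± 0.25, adjusted p = 0.00223 at 3 min and -2.99 ± 0.25, adjusted p = 5.56e-08 at 5 min, and the 3 min call was lost without the WT fructose library of that time (-1.29).

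GLG2 (YJL137C, chrX:154985-156127, reverse strand), the paralogue of GLG1, was at 49.8 FPKM and then at 50.7, 33.6, 25.99, 23.1, 27.6, 25.6 and 33.4 FPKM in the WT glucose course. In fructose it was at 49.1 FPKM and then at 40.1, 31.9, 27.02, 26.1, 27.3, 25.7 and 29.5 FPKM. From 5 min on the highest library, 5 min of glucose, was at 67.5% of galactose, with little movement between 10 and 60 min. The largest difference, -0.98 ± 0.13, adjusted p = 1.85e-05 at 15 min, passed the p threshold and missed the 2-fold one. GLG1 and GLG2 share 68.3% of 1124 aligned coding bases with no identical run over 9 bases, and GSY1 and GSY2 share 73.2% of 2113 with none over 20 bases.

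GPH1 (YPR160W, chrXVI:861306-864014, forward strand), the phosphorylase gene, was called lower from 10 min on. It went from 79.6 FPKM to 63.3, 37.3, 9.25, 3.47, 3.15, 13.6 and 16.7 FPKM in glucose, and from 68.8 FPKM to 56.2, 36.8, 11.8, 6.73, 5.68, 12.1 and 23.9 FPKM in fructose. Both 5 min libraries were still near 37 FPKM, and the low was at 30 min. The log2 difference was -0.98 ± 0.22, adjusted p = 0.00229 at 5 min, which missed the 2-fold threshold, and -3.83 ± 0.22, adjusted p = 9.37e-11 at 30 min.

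GDB1 (YPR184W, chrXVI:902044-906654, forward strand), the debranching enzyme gene, was at 22.8 FPKM and then at 19.5, 9.12, 2.46, 3.08, 2.69, 5.43 and 6.74 FPKM in glucose. In fructose it was at 20.5 FPKM and then at 16.2, 8.00, 2.74, 2.86, 3.26, 4.24 and 8.05 FPKM. Levels were flat and low from 10 to 30 min, and at 120 min the libraries were at 29.6% and 39.4% of galactose. The log2 difference was -2.65 ± 0.22, adjusted p = 2.45e-08 at 10 min and -1.43 ± 0.22, adjusted p = 0.000406 at 120 min.

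GAC1 (YOR178C, chrXV:667860-670241, reverse strand) encodes the subunit that directs the phosphatase Glc7 to glycogen synthase. In WT it was at 27.4 FPKM and then at 14.01, 2.36, 2.36, 4.43, 7.02, 10.1 and 13.5 FPKM in glucose, and at 30.1 FPKM and then at 7.93, 1.21, 1.43, 3.68, 6.40, 8.56 and 14.7 FPKM in fructose. Like GLG1 it was near its low at 5 min, and its fructose libraries at 5 and 10 min (about 25.9 and 14 fragments) were lower than the glucose ones. At 5 min the log2 difference was -3.45 ± 0.41, adjusted p = 3.72e-06, and at 120 min it was -0.98 ± 0.41, adjusted p = 0.25.

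PIG1 (YLR273C, chrXII:689083-691029, reverse strand), which encodes a relative of Gac1, was at 13.1 FPKM and then at 11.99, 6.18, 3.93, 5.66, 6.99, 9.14 and 11.1 FPKM in WT glucose, and at 14.6 FPKM and then at 10.2, 5.93, 4.21, 3.53, 6.25, 5.11 and 7.44 FPKM in fructose. It was lowest at 10 and 15 min, and the log2 difference at 10 min was -1.55 ± 0.26, adjusted p = 9.88e-05. PIG2 (YIL045W, chrIX:271161-272777, forward strand), for a subunit that binds glycogen synthase, had 8.96 FPKM and then 8.02, 4.58, 5.53, 6.46, 5.48, 7.72 and 8.55 FPKM in glucose, and 8.81 FPKM and then 8.28, 6.02, 6.12, 6.56, 6.53, 4.78 and 8.37 FPKM in fructose. All of these PIG2 libraries lie between 4.58 and 8.96 FPKM, and its largest difference was -0.66 ± 0.26, adjusted p = 0.0891 at 5 min.

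Read by time, WT had 2 members called lower at 3 min, where 0.613% of all genes were called lower. The count was 7 at 5 min (3.48% of all genes), 8 at 10 min (6.34%), 8 at 15 min (5.11%), 7 at 30 min (6.13%), 7 at 60 min (3.06%) and 4 at 120 min (1.61%). GLC3 and GLG1 were the members called at 3 min, and GSY1, GLC3, GPH1 and GDB1 those still called at 120 min. The median log2 difference of the 10 genes was -0.36 at 3 min, -2.82 at 10 min and -0.98 at 120 min, where that of all genes was 0.01, 0.00 and 0.02. Of these 43 calls 38 were kept whichever 1 library was left out; besides those of 3 min, the calls of GAC1 and GLG1 at 60 min (without the WT fructose library of that time -1.43 and -1.07) and of GLC3 at 120 min (-1.16 without the WT galactose library of the glucose course, -1.22 without the WT glucose library of that time) were lost. GAC1 at 60 min was also lost without the WT galactose library of the fructose course (-1.47) or of the glucose course (-1.60).

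**Figure D2:**
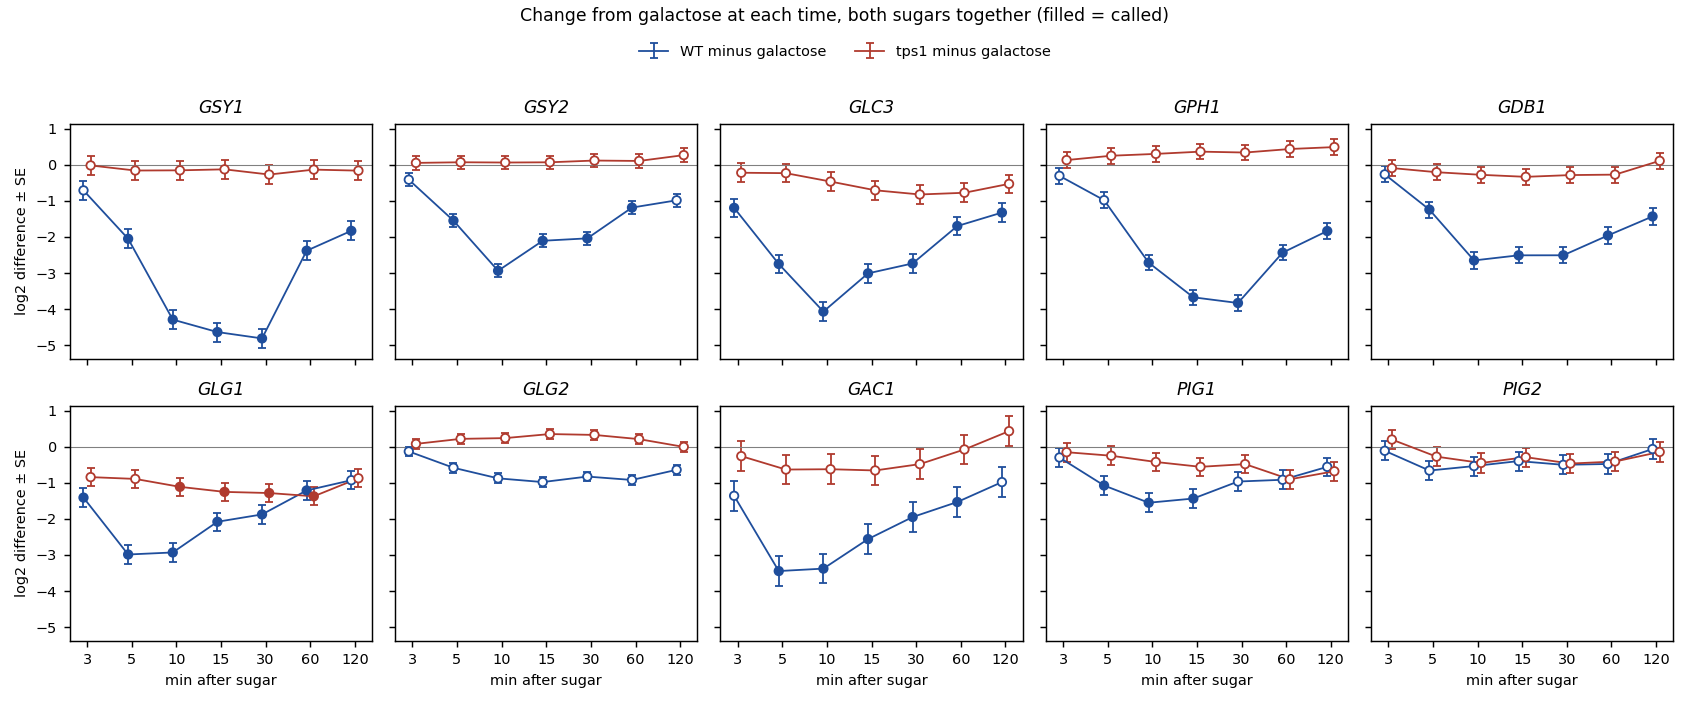
Log2 difference from galactose ± SE (limma, log2 of FPKM + 1) at each time after sugar, with the glucose and fructose libraries of a strain combined; filled points are called. WT (blue) reaches -4.81 ± 0.26 for GSY1 and -4.07 ± 0.26 for GLC3, while of the tps1 points (red) those of GLG1 at 10, 15, 30 and 60 min are called.

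Sugar by sugar, with the 4 libraries of 3 to 15 min as an early phase and the 3 of 30 to 120 min as a late one, 6 members were called lower early in glucose (3.16% of all genes) and 7 early in fructose (2.64%). Late, GPH1 alone was called in glucose (1.29% of all genes), and GPH1, GDB1, GLC3, GLG1 and PIG1 in fructose (2.45%). The SE here includes the movement within a phase, so these counts rest on few libraries. They ranged from 1 to 8 early in glucose, from 2 to 8 early in fructose, from 0 to 2 late in glucose and from 0 to 8 late in fructose when 1 library was left out, with the lowest counts reached by leaving out a galactose library; the late counts were also 0 without the 30 min or the 60 min library. Late minus early, no member was called in either WT course (limma; 2 of 10 at an unadjusted p under 0.05 in each), where 0.613% of genes were called in glucose and 0.403% in fructose.

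The sugars were compared at matched times within each strain. In WT no member was called between glucose and fructose, early (0.113% of all genes called) or late (0.145%), with 2 and 1 members at an unadjusted p under 0.05 (limma). The largest WT difference was that of GAC1 early, 0.51 ± 0.12, adjusted p = 0.0565. In tps1 no member was called early (0.193% of all genes; 2 members at an unadjusted p under 0.05), and GAC1 was called higher in glucose late (2.11% of all genes called higher). At 30, 60 and 120 min GAC1 stood at 18.1, 26.8 and 44.0 FPKM in tps1 with glucose and at 9.93, 12.2 and 15.5 FPKM with fructose, so the late libraries of the 2 sugars did not overlap. The difference was 1.11 ± 0.14, adjusted p = 0.000123, and without the pair of libraries at 120 min it was 0.94 and no longer called. GLG1 (0.68 ± 0.15, adjusted p = 0.00342) and GDB1 (0.48 ± 0.13, adjusted p = 0.0109) had late differences in the same direction that missed the 2-fold threshold.

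In tps1 the levels after the same sugars stayed closer to those in galactose. The FPKM of the 10 genes added up to between 350.0 and 424.1 in every tps1 library. GSY2 stayed between 121.8 and 164.7 FPKM in all 16 tps1 libraries, galactose included, and GSY1 between 27.1 and 42.4 FPKM. GPH1 went from 40.1 FPKM in galactose to 51.1 FPKM after 120 min of glucose, and from 34.1 to 53.8 FPKM in the fructose course. The highest tps1 library was 1.35 times the lowest for GSY2, 1.56 times for GSY1 and 1.58 times for GPH1, where the WT libraries spanned 11.2, 63.0 and 25.2 times.

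GLC3 in tps1 stood at 60.2 FPKM in galactose and at 49.05, 42.5, 35.1, 25.9, 23.9, 31.3 and 47.1 FPKM over the 7 times of glucose, with its low at 30 min. In fructose it stood at 51.5 FPKM and then at 46.3, 52.5, 45.7, 43.8, 40.3, 32.9 and 31.1 FPKM, lowest at 120 min. GDB1 ranged from 10.8 to 22.6 FPKM over the 16 tps1 libraries and GLG2 from 37.0 to 61.5 FPKM. GLG1 stood at 27.7 FPKM and then 17.5, 14.6, 11.5, 11.5, 12.4, 13.4 and 20.9 FPKM in glucose, and at 28.1 FPKM and then 13.1, 14.6, 13.3, 10.8, 9.54, 7.62 and 10.4 FPKM in fructose. All 14 tps1 libraries after sugar were below both galactose ones for GLG1 and for PIG1, 2 of the 10 genes, as for 12.8% of all genes.

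GAC1 in tps1 stood at 22.5 FPKM and then at 20.2, 14.9, 13.3, 13.3, 18.1, 26.8 and 43.95 FPKM in glucose, and at 16.3 FPKM and then at 12.4, 9.69, 10.98, 10.5, 9.93, 12.2 and 15.5 FPKM in fructose. Its libraries from 3 to 15 min were below galactose in both sugars, and those of 60 and 120 min of glucose were above it. PIG1 stood at 14.3 FPKM and then at 12.7, 11.9, 10.3, 9.24, 10.2, 5.36 and 11.1 FPKM in glucose, and at 14.9 FPKM and then at 13.4, 12.4, 10.9, 9.97, 10.1, 9.93 and 6.84 FPKM in fructose. PIG2 had a lowest, median and highest level of 3.92, 5.67 and 8.88 FPKM in the 14 tps1 libraries after sugar. None of these 3 genes was called against galactose in tps1.

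With the sugars together, GLG1 was the 1 member called in tps1, lower at 10 min (-1.11 ± 0.25, adjusted p = 0.00361), 15 min (-1.25 ± 0.25, adjusted p = 0.00101), 30 min (-1.28 ± 0.25, adjusted p = 0.00046) and 60 min (-1.37 ± 0.25, adjusted p = 0.00021). Of all genes 4.85%, 6.13%, 8.74% and 9.09% were called lower at those times. No member was called in either direction at 3, 5 and 120 min (limma; 1, 1 and 3 members at an unadjusted p under 0.05), where 0.161%, 2.11% and 11.9% of all genes were called. At 60 min GSY2 had 0.11 ± 0.18, adjusted p = 0.658, GSY1 -0.13 ± 0.26, adjusted p = 0.7 and GPH1 0.44 ± 0.22, adjusted p = 0.105. Per course and phase the 1 call was GLG1 late in fructose (-1.52 ± 0.42, adjusted p = 0.00468), where 8.77% of genes were called lower. In the other phases 0 members were called, with 1 at an unadjusted p under 0.05 in each (limma), where 3.01% (early fructose), 3.68% (early glucose) and 15.3% (late glucose) of all genes were called.

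These tps1 values depend on how the libraries are scaled. Scaled to equal FPKM sums, the median of all genes in tps1 shifts against galactose by -0.26 at 3 min, -0.60 at 10 min and -0.89 at 60 min (log2), while in WT the shift is at most -0.21. On that scale 28 member-by-time tests were called lower in tps1 instead of 4, GLC3, PIG1 and GLG1 being the genes called at the most times, among 1373 genes lower at 10 min and 2677 at 60 min. GSY1 was called lower at 30, 60 and 120 min on that scale (-1.14, -1.01 and -1.04), and GSY2 and GPH1 were called lower at no time on either.

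The strains were then compared at each time. tps1 exceeded WT in GSY2 at 12 of 12 matched libraries from 5 to 120 min: WT had a lowest, median and highest level of 16.6, 54.00 and 89.8 FPKM and tps1 of 135, 140.1 and 165 FPKM. For GSY1 the figures were 1.09, 5.21 and 20.2 FPKM in WT and 27.1, 35.05 and 42.4 FPKM in tps1. For GPH1 they were 3.15, 11.9 and 37.3 FPKM and 43.8, 47.5 and 53.8 FPKM. In these 3 genes, and in GDB1 and GLG2, no WT library from 5 to 120 min reached the lowest tps1 library; such a gap in this direction was found in 9.06% of all genes.

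GDB1 had a lowest, median and highest level of 2.46, 3.75 and 9.12 FPKM in WT and 10.8, 13.4 and 22.6 FPKM in tps1 from 5 to 120 min, and GLG2 of 23.1, 27.1 and 33.6 and 36.97, 49.99 and 61.5 FPKM. GLC3 and GAC1 overlapped between the strains, though each was higher in tps1 at 12 of 12 matched libraries. GLG1 was higher in tps1 in 9 of 12, PIG1 in 10 of 12 and PIG2 in 3 of 12. The share of all genes with such counts, that of GSY2 included, was not worked out. The 12 are serial libraries of the glucose and fructose courses, so the counts are a description.

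At 3 min no member was called between the strains (limma; 2 of 10 at an unadjusted p under 0.05; 3.5% of all genes called). Members called higher in tps1 numbered 5 at 5 min (3.34% of all genes called higher), 8 at 10 min (8.51%), 7 at 15 min (8.37%), 5 at 30 min (10.9%), 3 at 60 min (11%) and 3 at 120 min (8.69%). GSY1 was called at all 6 of these times, with 3.94 ± 0.26, adjusted p = 1.08e-09 at 30 min. GPH1 was called from 10 to 120 min, with 3.19 ± 0.22, adjusted p = 1.35e-09 at 30 min, and GDB1 over the same times. GLC3 was called from 5 to 30 min, with 3.29 ± 0.26, adjusted p = 9.46e-09 at 10 min, and GSY2 over the same times, with 2.57 ± 0.18, adjusted p = 2.82e-09 at 10 min.

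The other members were called over a shorter span. GLG1 was called at 5 min (1.86 ± 0.25, adjusted p = 1.39e-05) and 10 min and not later, and its tps1 level was the lower of the strains at 60 min in both sugars. GAC1 was called at 5, 10 and 15 min (2.26 ± 0.41, adjusted p = 0.000317 at 5 min), GLG2 at 15 min (1.12 ± 0.13, adjusted p = 1.89e-06) and PIG1 at 10 min (1.20 ± 0.26, adjusted p = 0.000796). Of the 31 calls 27 were kept whichever 1 library was left out. Lost were GAC1 at 15 min (1.19 without the tps1 glucose library, 1.24 without the WT fructose one), GLG2 at 15 min (0.95 without the tps1 glucose library), GDB1 at 120 min (0.80 without the tps1 glucose library) and GSY1 at 120 min (0.76 without the WT glucose library, 0.79 without the tps1 fructose one). With equal FPKM sums 23 of the 31 calls were made and no member was called at 120 min.

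For each sugar, 6 members were called higher in tps1 early in glucose (5.14% of all genes), 3 late in glucose (11%), 5 early in fructose (3.63%) and 4 late in fructose (9.64%). GAC1, GLC3, GLG1, GSY1 and GSY2 were called early in both sugars, and GDB1 early in glucose. Late, GPH1 and GDB1 were called in both sugars, GAC1 in glucose, and GSY1 and GSY2 in fructose. The counts for fructose ranged from 2 to 7 early and from 0 to 3 late when 1 time was left out, the late count being 0 without the 30 min or without the 60 min libraries.

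Because 9 of the 10 genes stood lower in tps1 in galactose, the change from galactose was also compared between the strains at each time, a fit added after values had been seen. The tps1 change was above the WT change in 0 members at 3 min (limma; 1 at an unadjusted p under 0.05; 1.16% of all genes called), 7 at 5 min (2.72% of all genes called higher), 9 at 10 min (7.87%), 7 at 15 min (7.72%), 6 at 30 min (10.2%), 5 at 60 min (9.59%) and 4 at 120 min (6.82%). At 10 min PIG2 was the member not called (0.09 ± 0.37, adjusted p = 0.892). The largest differences were those of GSY1 at 30 min (4.54 ± 0.37, adjusted p = 5.33e-08), GPH1 at 30 min (4.17 ± 0.31, adjusted p = 1.65e-08) and GLC3 at 10 min (3.60 ± 0.37, adjusted p = 9.18e-07). Of these 38 calls 34 were kept whichever 1 library was left out, those of PIG1 at 10 min, GDB1 and GPH1 at 5 min and GAC1 at 15 min being lost in at least 1 case (lowest values over all such fits 1.06, 0.83, 1.12 and 1.68). Under at least 1 other pseudocount, filter, scaling or trend setting these calls were lost too, and further ones with them. Those were GLG2 at 10, 15, 30 and 60 min (lowest values 0.67, 0.81, 0.50 and 0.44) and GSY2 at 60 and 120 min (0.59 and 0.50). GSY1 and GDB1 at 120 min were also lost (0.94 and 0.85), so GPH1 alone kept its 120 min call under every such setting.

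The same comparison by sugar and phase called 2 members early in glucose (GAC1 and GLC3; 2.22% of all genes), 3 late in glucose (GAC1, GDB1 and GPH1; 8.42%), 1 early in fructose (GAC1; 0.548%) and 1 late in fructose (GLG2; 7.64%). Each of these 4 counts went to 0 when either pair of galactose libraries was left out. Late minus early, no member was called between the strains in glucose (4.69% of all genes called) or fructose (0.516%), with 2 members at an unadjusted p under 0.05 in each (limma). Within tps1, no member was called late minus early in glucose (3.43% of all genes) or fructose (1.06%), with 0 members at an unadjusted p under 0.05 in both (limma). All comparisons with galactose share the 2 galactose libraries of a strain.

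Ratios between members within a library do not depend on how the libraries are scaled. GSY2 exceeded GSY1 by 2.71 and 3.23 times in the WT galactose libraries. After glucose the ratio was 3.38, 4.05, 9.01, 18.8, 38.8, 6.04 and 6.87 at 3, 5, 10, 15, 30, 60 and 120 min, and after fructose 3.97, 4.73, 12.3, 42.0, 33.9, 8.72 and 4.45. WT thus held little GSY1 beside GSY2 at 15 and 30 min and came back toward its starting ratio at 120 min. In tps1 the ratio was 3.04 and 3.70 in galactose and lay between 3.37 and 5.32 in the 14 libraries after sugar, a range that the WT libraries of 10 to 60 min all exceeded.

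GSY2 to GPH1, synthase to phosphorylase, was 2.34 and 2.47 in WT galactose, 1.61 and 1.65 at 5 min, and 13.4 and 7.54 at 30 min of glucose and fructose. In tps1 it stayed between 2.80 and 3.57 in all 16 libraries. GLG2 to GLG1 moved in both strains, from 1.44 and 1.57 in WT galactose to 10.8 and 9.24 at 5 min and back to 1.97 and 1.77 at 120 min. In tps1 the same ratio was 1.46 and 1.59 in galactose and its highest values were 5.35 at 15 min of glucose and 6.84 at 60 min of fructose, so the glycogenin pair shifted in tps1 as well.

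**Figure D3:**
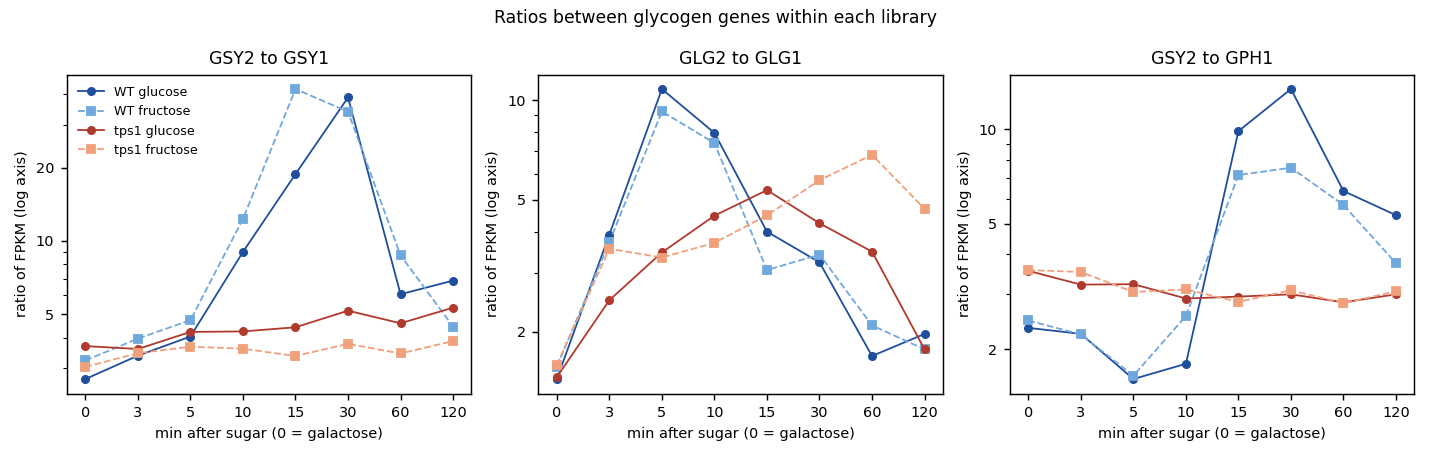
Ratio of FPKM between pairs of members within each library, on log axes, against minutes after sugar at even steps. GSY2 to GSY1 (left) rises to 42.0 in WT and stays at 5.32 or less in tps1; GLG2 to GLG1 (middle) rises in both strains; GSY2 to GPH1 (right) stays between 2.80 and 3.57 in tps1.

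Across the 45 pairs of members, the median Pearson correlation of log2(FPKM + 1) was 0.79 over the 16 WT libraries and -0.03 over the 16 tps1 libraries, a description of libraries that are serial samples of 2 courses each. The correlations used FPKM as deposited, so they depend on library scaling, and no other scaling was tried for them. The highest tps1 library was 1.35 (GSY2) to 4.53 (GAC1) times the lowest, against 1.95 (PIG2) to 63.0 (GSY1) times in WT, so the tps1 figure rests on a narrower range. Over all 32 libraries, the genes of the 6203 most like GSY1 were EMI2 (r = 0.98), HXK1 (0.96), YFR052C-A (0.96), GPH1 (0.95) and SDH1 (0.95). Most like GSY2 were CYB2 (0.98), EMI2 (0.96), HXK1 (0.96), PGM2 (0.96) and YLR345W (0.96). Most like GPH1 were OM45 (0.97), GSY1 (0.95), COX26 (0.94), YPR160C-A (0.94) and PRX1 (0.94). YFR052C-A and YPR160C-A have no entry in the annotation used here, and how strand was handled in counting is not known here, so shared reads between neighbouring entries could not be checked.

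Of 21 further genes of glycogen supply and control, 4 were called lower in WT at 5 min (3.48% of all genes), 7 at 10 min (6.34%), 4 at 15 min (5.11%) and 30 min (6.13%), and 3 at 60 min (3.06%) and 120 min (1.61%). PSK2 was called higher at 10 min, with 5.51% of all genes. PGM2, the phosphoglucomutase that feeds UDP-glucose synthesis, stood at 303 FPKM in WT galactose and at 176, 62.9, 8.03, 13.1, 17.6, 55.2 and 69.3 FPKM over the 7 times of glucose. In tps1 glucose it stood at 252 FPKM and then at 268, 284, 348, 347, 439.9, 495 and 376 FPKM, above WT from 3 min on. IGD1, an inhibitor of the debranching enzyme, ranged from 3.71 to 47.8 FPKM in the 14 WT libraries after sugar and from 68.96 to 154 FPKM in the tps1 ones. At 10 min the strains differed by 4.68 ± 0.28, adjusted p = 1.95e-10 in PGM2 and by 4.29 ± 0.18, adjusted p = 1.47e-12 in IGD1.

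At 10 min 5 of the 21 were called higher in tps1 than WT (PGM2, IGD1, UGP1, GIP2 and SGA1), where 8.51% of all genes were, and 2 lower (MSN2 and PSK2), where 10.2% were. UGP1 encodes the enzyme that makes UDP-glucose and GIP2 a further Glc7 subunit. PSK2, for a kinase that acts on Ugp1 and glycogen synthase, had -1.81 ± 0.23, adjusted p = 3.76e-06, and MSN2 had -1.46 ± 0.26, adjusted p = 0.000129. MSN2 and MSN4 encode the factors that bind the stress response element. MSN2 had a lowest, median and highest level of 54.5, 67.2 and 101 FPKM in the 14 WT libraries after sugar and of 11.96, 23.8 and 40.4 FPKM in tps1, with no overlap. MSN4 was called lower than in galactose in both strains: in WT at 5, 10 and 15 min (-1.66 ± 0.26, adjusted p = 4.77e-05 at 10 min), with 37.5 and 37.1 FPKM at 120 min against 31.3 and 31.5 FPKM before the sugar, and in tps1 from 5 min on (-2.17 ± 0.26, adjusted p = 5.73e-06 at 30 min). It was called lower in tps1 than WT at 30, 60 and 120 min (-2.04 ± 0.26, adjusted p = 5.16e-06 at 120 min). PCL8, a cyclin gene of the kinase Pho85 that acts on glycogen synthase, was lower in tps1 at 60 min (-1.96 ± 0.46, adjusted p = 0.00145). Its level in the tps1 fructose library of that time was 0.53 FPKM, near the floor, and that library had the lowest depth (3.94 M fragments).

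**Figure D4:**
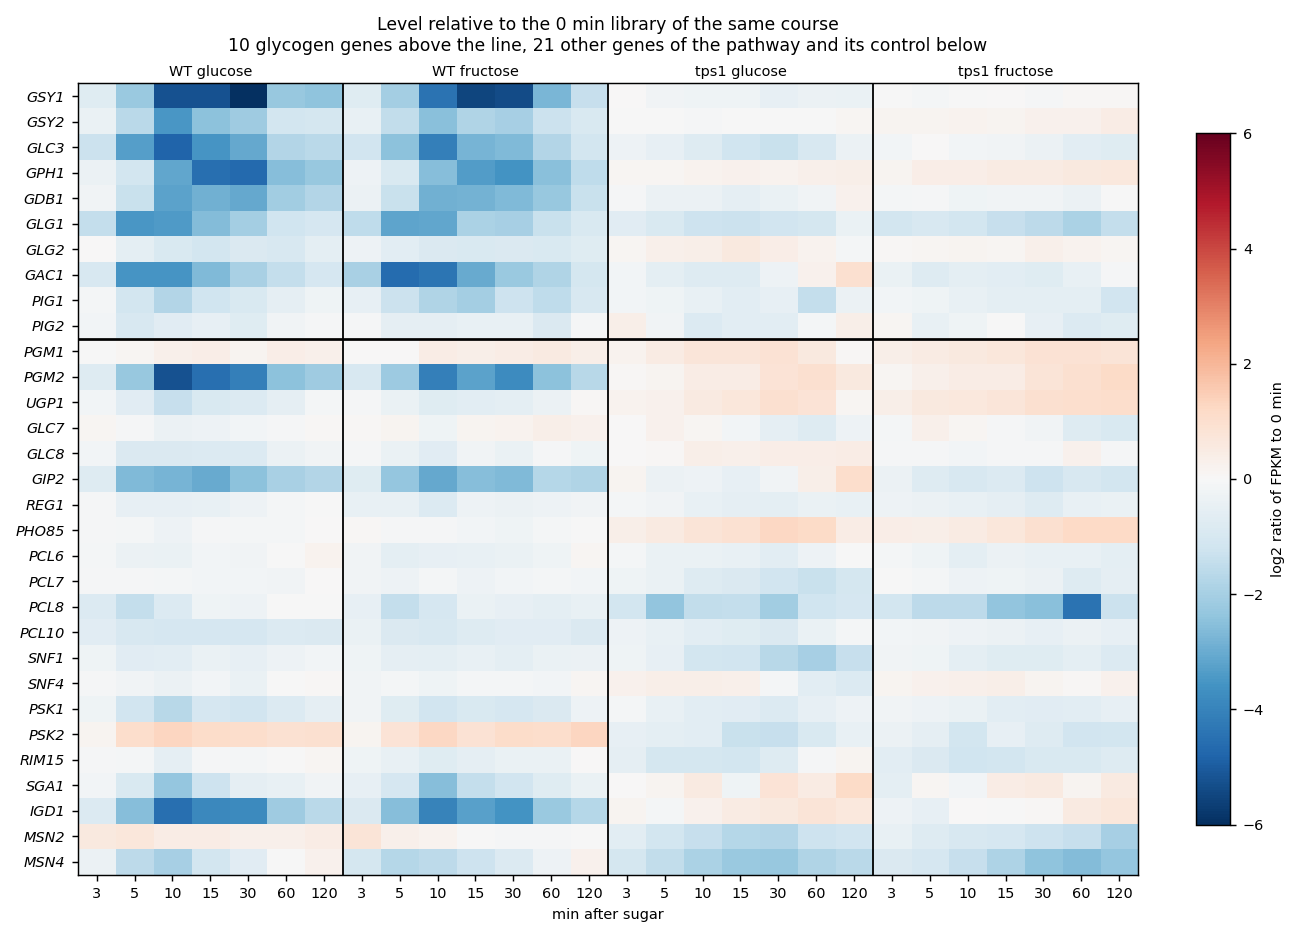
Log2 ratio of FPKM to the 0 min library of the same course, in columns by course and minutes after sugar, for the 10 glycogen genes (above the line) and 21 other genes of the pathway and its control. Blue marks levels below 0 min. At every time of the WT courses 9 of the 10 glycogen genes (not GLG2), PGM2, GIP2 and IGD1 are blue. PCL10, SNF1, PSK1, SGA1, GLC8, REG1 and PCL8 are also blue there at every time. In tps1 PCL8 and MSN4 go lowest, to 4.61% (0.53 FPKM) and 16.6% of 0 min at 60 min of fructose. SNF1 (24.9%, glucose) and MSN2 (25.5%, fructose) come next. PGM2 turns red in tps1, from 251.5 to 494.8 FPKM at 60 min of glucose.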

How the data were processed

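RNA was measured in 32 libraries, with poly-A selection and a stranded kit per the labels' protocols. The deposited values are FPKM per gene in 1 table, made by the authors with CASAVA 1.4, TopHat2 and Cuffnorm on sacCer3, per the submitters' processing notes; the annotation, the scaling and the use of strand in counting are not given in the sources used here. The table holds no counts, so depth was estimated from low FPKM values; 88.7% of 1335 such values came to whole fragments with a tolerance of 0.1 (74.4% in the worst library), and no count test was run. A blank row was left out. Of 6717 IDs 6025 matched the RefSeq R64 annotation, which gave names and positions; no member overlapped another gene there.

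Genes with a mean FPKM of at least 1 were tested on log2(FPKM + 1) with limma 3.58.1 in R 4.3.3 (trended prior variance, Benjamini-Hochberg adjustment within a comparison); the scale understates the change of low genes. Changes from galactose used cell means over all 32 libraries, by course and phase or by strain and time. Strain comparisons at single times, also those relative to galactose, used the same means by strain and time, without matching. The strain comparison in galactose used the galactose libraries alone. Strain comparisons by sugar and phase, and the sugar comparisons, used differences of libraries matched by time. The code of the fits was tested on simulated data. Of the 21 other genes, values are given for at most 4 called ones with the largest differences in a comparison. The 10 genes, the list of 21, the named-gene rule and the tests were chosen with earlier results of these data known. Alternatives were other pseudocounts, no filter, other scalings, no trend, other baselines, no matching, and leaving out libraries. limma gives each adjusted p in the text. Figures used Python 3.11.15 with matplotlib 3.10.9.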

Additional observations from a re-analysis of the deposited data

Results flagged for a closer look

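In 45 comparisons the strains' changes from galactose differed by the test of the difference itself (limma, adjusted p under 0.05 and at least 2-fold), 38 at single times with the sugars together and 7 by sugar and phase. Each value is the tps1 change minus the WT change on the log2 scale, and all are above 0. For GSY1 the difference was 1.89, 4.14, 4.51, 4.54, 2.25 and 1.67 at 5, 10, 15, 30, 60 and 120 min. GSY2 had 1.62, 3.00, 2.18, 2.16, 1.29 and 1.25 at 5, 10, 15, 30, 60 and 120 min. The branching enzyme gene GLC3 had 2.52, 3.60, 2.30 and 1.91 at 5, 10, 15 and 30 min. In GPH1 the values were 1.23, 3.02, 4.04, 4.17, 2.87 and 2.33 at 5, 10, 15, 30, 60 and 120 min. GDB1 gave 1.04, 2.37, 2.18, 2.22, 1.69 and 1.54 at 5, 10, 15, 30, 60 and 120 min. The glycogenin gene GLG1 had 2.09 and 1.82 at 5 and 10 min. Its paralogue GLG2 had 1.12, 1.33, 1.15 and 1.13 at 10, 15, 30 and 60 min. The phosphatase subunit gene GAC1 had 2.81, 2.76 and 1.90 at 5, 10 and 15 min. PIG1 had 1.13 at 10 min. By sugar and phase GAC1 had 2.11 early and 1.96 late in glucose and 2.17 early in fructose. GLC3 had 2.30 early in glucose, GDB1 2.08 and GPH1 3.27 late in glucose, and GLG2 1.10 late in fructose. In the early phase, the 4 libraries of each course were scanned for 1 far value in each of the 10 genes, 40 scans in all, and none was found; the late and galactose groups, with 3 and 2 libraries, were not scanned.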

How the results depend on the processing

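Equal FPKM sums changed the most counts of members called. Calls lower in tps1 over the 7 times went from 4 to 28. By phase, calls lower in tps1 went to 1 (early glucose and early fructose, from 0), 3 (late glucose, from 0) and 5 (late fructose, from 1), and in WT late fructose from 5 to 8. Calls higher in tps1 than WT went from 5 to 3 early and from 4 to 0 late in fructose. Relative to galactose they went from 2 to 1 early and from 3 to 1 late in glucose, and from 1 to 0 late in fructose. The difference of late minus early in fructose went from 0 to 2. With the galactose library of the same course as baseline, WT calls were 3 (early glucose), 2 (early fructose), 0 and 0 (late), and with that of the other course 1, 2, 0 and 0, in place of 6, 7, 1 and 5; fewer galactose libraries entered these fits. Without a filter, WT calls were 0 late in glucose and 2 late in fructose, and relative to galactose 1 early in glucose and 0 early and late in fructose. A pseudocount of 0.1 gave 0 and 2 late in WT, and relative to galactose 1 early in glucose and 0 early in fructose. A pseudocount of 5 gave 5 late in WT glucose, 3 early in fructose and 5 late in glucose between the strains, 2 relative to galactose late in fructose, and 0 between the sugars late in tps1. Without a trend, WT late glucose gave 0 and the early glucose count relative to galactose 1. Without matching by time, the sugars gave 0 late in tps1, and relative to galactose early glucose gave 1 and early fructose 0. The cause of these moves was not tested further.

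Leaving out 1 library or 1 matched time, counts ranged as follows. WT against galactose gave 1 to 8 (early glucose), 2 to 8 (early fructose), 0 to 2 (late glucose) and 0 to 8 (late fructose). Late minus early in WT gave 0 to 2 in glucose and 0 to 1 in fructose. tps1 against WT gave 2 to 7 early and 0 to 3 late in fructose, and relative to galactose 0 to 7 early and 0 to 4 late in glucose, 0 to 2 early in fructose and 0 late in fructose. The sugars late in tps1 gave 0 to 1.

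Among the gene and comparison pairs called under at least 1 setting, directions turned in 3 values uncalled in the main fit. Pairs called under no setting are not counted here, and their directions can turn as well. GAC1 in tps1 at 120 min, 0.43, was -0.43 with equal sums and ran from -0.29 without the tps1 glucose library to 1.15 without the fructose one. GSY1 in tps1, -0.16 at 120 min and -0.13 at 60 min, ran from -0.43 to 0.11 and from -0.35 to 0.082, the values above 0 being those without the tps1 glucose library of that time. Of the single-gene values of these pairs under alternatives, 2457 kept direction and call, 251 lost the call and 108 gained one. No paired analysis by replicate number was possible because the labels give none. Libraries were paired by time in the sugar comparisons and in the strain comparisons by sugar and phase, but not in the strain comparisons at single times. Each condition is 1 library, so culture-to-culture variation is not measured here, and the lowest GSY1 and GAC1 levels rest on 14 to 42.2 fragments.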

Other observations

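The speed of the WT fall differed between members. From 3 to 5 min GAC1 dropped 5.93-fold in glucose and 6.54-fold in fructose, GLG1 4.13-fold and 3.12-fold and GLC3 4.01-fold and 2.47-fold, while GPH1 dropped 1.70-fold and 1.53-fold. From 5 to 10 min GSY1 dropped 8.01-fold and 5.28-fold and GPH1 4.03-fold and 3.13-fold, where the 5 to 10 min ratio of GLG1 was 0.96 and 0.95. These are ratios of 2 libraries each and were not tested.

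The ratio of branching to debranching enzyme transcripts, GLC3 to GDB1, was 3.41 and 3.03 in WT galactose, 0.87 and 1.41 at 5 min and 4.29 and 4.33 at 60 min of glucose and fructose. In tps1 it was 3.20 and 3.70 in galactose and 1.67 and 3.34 at 30 min. The ratio of GAC1 to PIG1 was 2.09 and 2.06 in WT galactose and 0.38 and 0.20 at 5 min, against 1.25 and 0.78 at 5 min in tps1. It reached 5.01 in tps1 at 60 min of glucose, where PIG1 stood at 5.36 FPKM and its libraries at 30 and 120 min at 10.2 and 11.1 FPKM.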
